A study of Caenorhabditis elegans with 2 samples.

Results

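UNC-62 occupancy was examined at 78 homeobox genes of *Caenorhabditis elegans*, out of 19985 protein-coding genes in the WBcel235 annotation. The members were all 62 protein-coding genes named ceh with a number, except ceh-60, together with 16 genes of other names: the Hox genes lin-39, mab-5, egl-5, php-3 and nob-1, and unc-4, unc-30, unc-42, ttx-3, lim-4, lim-6, lin-11, mec-3, unc-86, vab-7 and cog-1. Chromatin immunoprecipitation and sequencing (ChIP-seq) had been done on whole L4 larvae, both sexes pooled, in 2 biological replicates of strain OP600. All worms carried the unc119(ed3) allele and the integrated array wgIs600, which holds unc-62 fused to TY1, EGFP and FLAG sequences, the tag at the C terminus, together with an unc119 copy; the labels do not give the promoter. The label gives unc-62 as the antibody and does not name the epitope, and there was no other genotype, stage or treatment, so no groups could be compared. Because whole worms were used, occupancy in few cells and weak occupancy in many cannot be told apart.

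Homeobox genes encode transcription factors that bind DNA through a homeodomain. Hox proteins assign identities along the body axis, and many other homeodomain proteins fix the type of single neurons, muscles or gland cells. UNC-62 belongs to the Meis and Homothorax family of the TALE class, whose members bind DNA together with PBC-class proteins and also with Hox proteins. The PBC-class proteins of worms are CEH-20, CEH-40 and CEH-60. Meis-class proteins are known to favour the word TGACAG.

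A region was assigned to a gene where its summit lay between 1000 bp upstream and 500 bp downstream of a transcript start, or within the gene. The long lists of each replicate and of the pooled replicates contain background by design, and a region in them is not by itself a binding site. The shorter thresholded list holds what passed the authors' reproducibility step. Regions were ranked within each list by the authors' signal value, which is on different scales in different lists. The replicate lists held 18114 and 20477 regions, the pooled list 4849 and the thresholded list 197. Read depth behind these values is unknown.

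The sequences at 3 of the members are shown first because the values below turn on them: the peak upstream of ceh-99, the region upstream of mec-3 with a cluster of Meis-class words, and the intronic region of the Hox gene nob-1. Each is the plus strand of WBcel235 (ce11), read 5′ to 3′ from RefSeq's assembly, from 90 bp below to 40 bp above the summit of the pooled list, and none overlaps an annotated exon. Capitals mark TGACAG or its complement CTGTCA at ceh-99 (II:12518942-12519072) and mec-3 (IV:10462763-10462893), and the shorter TGACA or TGTCA at nob-1 (III:12081928-12082058), which has no full word there.
ceh-99: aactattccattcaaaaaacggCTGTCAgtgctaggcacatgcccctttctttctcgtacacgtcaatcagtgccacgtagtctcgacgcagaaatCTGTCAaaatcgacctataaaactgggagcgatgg
mec-3: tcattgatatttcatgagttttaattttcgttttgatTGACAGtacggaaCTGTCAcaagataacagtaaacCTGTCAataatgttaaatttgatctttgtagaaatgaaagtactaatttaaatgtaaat
nob-1: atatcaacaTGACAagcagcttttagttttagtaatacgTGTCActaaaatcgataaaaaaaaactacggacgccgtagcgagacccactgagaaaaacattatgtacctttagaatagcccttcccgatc

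UNC-62 regions were listed at homeobox genes about as often as at other genes. A single member, ceh-99, had a thresholded peak in its window (1.28% of 78, 95% Wilson interval 0.227 to 6.91), where 0.686% of all protein-coding genes had one. The replicate 1 list held a region at 43 members (55.1%, interval 44.1 to 65.7) and at 48.2% of all genes. The replicate 2 list also held a region at 43 members (55.1%), against 50.8% of all genes. In the pooled list 11 members had a region (14.1%, interval 8.06 to 23.5), against 16.9% of all genes. These intervals cover the counting of genes alone.

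Few members were left at a q-value threshold of 0.05, the threshold used throughout. Replicate 1 had such a region at ceh-99, ceh-37, egl-5 and nob-1, which is 4 of 78 members (5.13%, interval 2.01 to 12.5), against 5.98% of all genes. In replicate 2 it was ceh-99 alone (1.28%, against 2.30% of all genes), as it was in the pooled list (1.28%, against 1.35%). Overlapping regions of both replicates, sharing at least 1 bp, lay at 13 members (16.7%, interval 10 to 26.5), and 16.6% of all genes had such a pair. With a q-value of 0.05 or less on both sides, ceh-99 remained as the only member (1.28%), beside 0.926% of all genes. For each of these calls the share of all genes lay inside the members' interval.

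**Figure D1:**
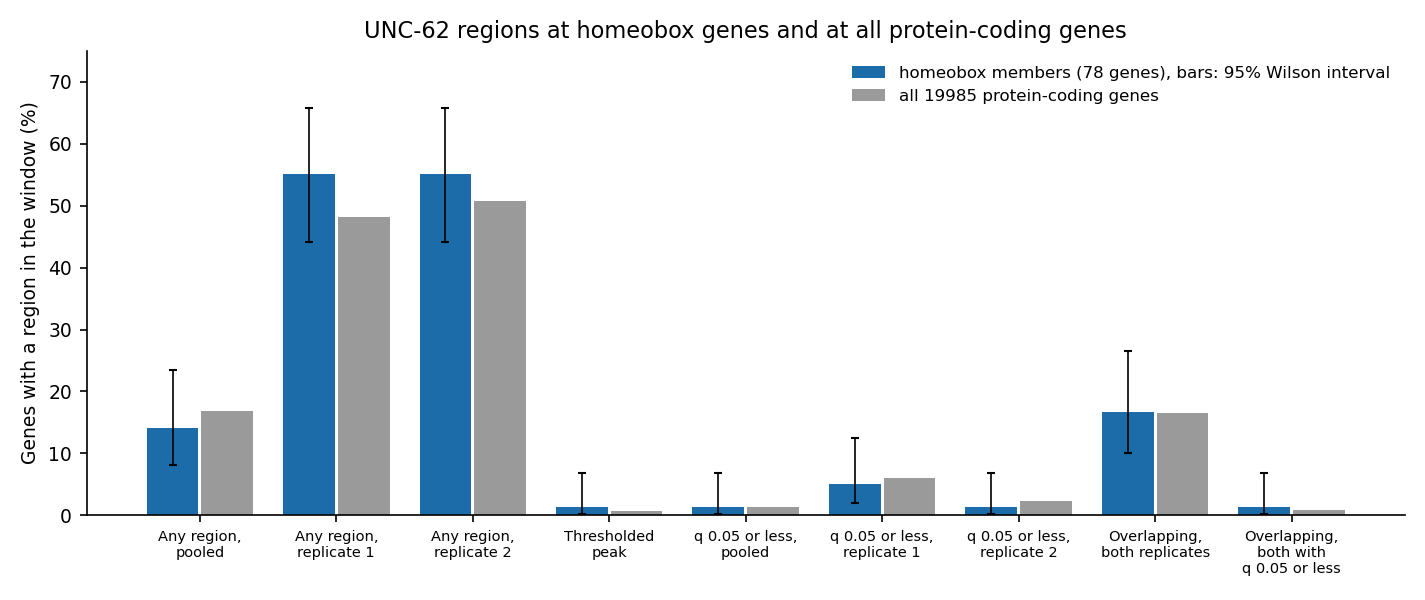
Percentage of the 78 homeobox members (blue, with 95% Wilson intervals) and of all 19985 protein-coding genes (grey) with a region in the window, for each list and call. The 2 bars of each pair are close, at 55.1% and 48.2% in replicate 1 and at 16.7% and 16.6% for overlapping regions of both replicates.

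Homeobox genes are longer than most, so their windows offered more room. The median window was 4150 bp for members and 3027 bp for all genes, and member windows ran from 1515 bp at ceh-7 to 22503 bp at ceh-100. Over 368 kb of member windows, replicate 1 listed 66 distinct regions, or 17.9 per 100 kb, against 18.8 per 100 kb of all gene windows. Replicate 2 listed 72, or 19.6 per 100 kb, against 20.9. The pooled list had 13, or 3.53 per 100 kb, against 4.93. Per length, then, homeobox windows held slightly fewer regions than gene windows at large in all 3 long lists. Across the 78 members, window length and number of regions had Spearman's rho of 0.39 in replicate 1 and 0.33 in replicate 2, as a description, since all points share the same libraries.

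Regions at members were spread over the ranks, from 2 to 17892 in replicate 1 and from 9 to 20277 in replicate 2. The median member region lay at 43.3% of the way down the replicate 1 list and at 56.9% down that of replicate 2, where regions at any gene lay at 49.9% and 50.1%. In the pooled list the 13 regions had a median of 31.9%, against 50.6%. Of the 66 regions in replicate 1, 33 lay in introns, 16 outside the gene, 12 in coding exons and 5 in other exons. In replicate 2 the same classes held 31, 20, 11 and 10 of 72. No summit was shared between 2 members.

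The outstanding value belonged to ceh-99 (WBGene00044032, II:12519981-12524478, plus strand), a homeobox gene placed in no class here. Its summit ranked 2 in replicate 1 with a signal of 39.2 (q = 0.00220) and 9 in replicate 2 with a signal of 63.2 (q = 0.0131). In the pooled list it ranked 6 with a signal of 103 (q = 0.0381, the lowest q-value that list contains). The summits of the replicates were 11 bp apart, 949 and 960 bp upstream of the start. Both TGACAG words in the printed sequence are on the minus strand, and their first bases in coordinate are 68 bp below and 6 bp above the pooled summit. This summit was only just inside the window and is not nearest to ceh-99. The start of srh-70, a predicted chemoreceptor gene on the other strand, lies 173 bp from the summit. The snoRNA gene T21B4.20 lies 54 bp from it and the miRNA gene mir-77 lies 236 bp from it. The regions of both replicates and of the pooled list cover all of T21B4.20 and the start of srh-70. The peak therefore cannot be assigned to ceh-99 by position. A further replicate 1 region in an intron of ceh-99 ranked 10350 (q = 0.538) and had no partner in replicate 2.

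The LIM-homeodomain gene mec-3, which directs touch receptor neurons to their fate, had the next best pooled rank among members, 705, with a signal of 13.1 (q = 0.194). At this position replicate 2 ranked a region 638 (signal 9.28, q = 0.0604) and replicate 1 ranked one 4014 (signal 3.97, q = 0.191). Neither replicate reached a q-value of 0.05, but the 2 summits were 13 bp apart, 986 and 999 bp upstream of the start of mec-3 (WBGene00003167, IV:10458816-10461867, minus strand). No other protein-coding start was as near, the next being that of ugt-43 at 1735 bp. Within 100 bp of the pooled summit there were 3 TGACAG words, with first bases 53, 40 and 18 bp below it in coordinate. The Pbx-Meis composite TGATTGACA begins 57 bp below the summit and overlaps the word at 53 bp. That composite was found in the promoter window of 1 member, mec-3, out of 78 (1.28%), and in 1.65% of 19973 nuclear promoters. It lay near 34 of 4828 nuclear regions of the pooled list (0.704%).

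**Figure D2:**
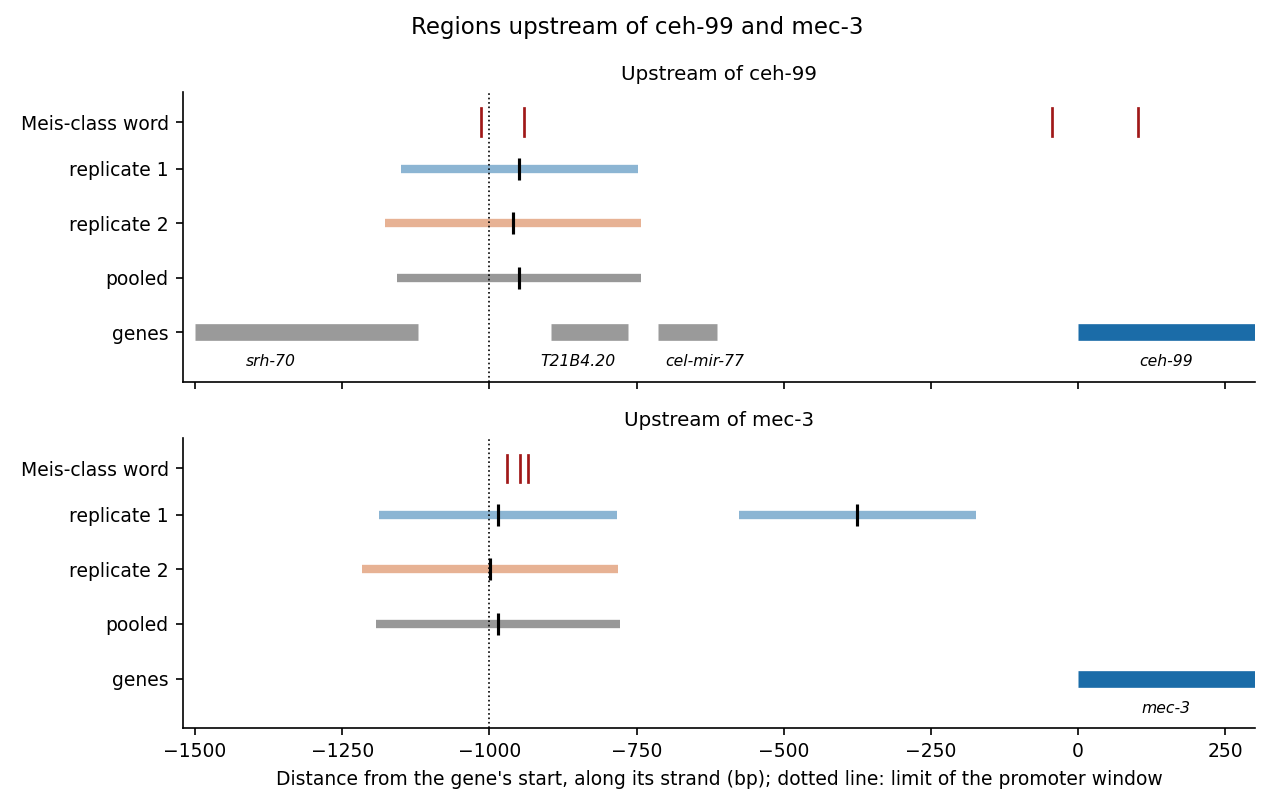
Regions of replicate 1 (blue), replicate 2 (orange) and the pooled list (grey) upstream of ceh-99 and mec-3, against distance from the gene's start in bp along its strand. Black ticks are summits, red ticks TGACAG words on either strand, and the dotted line is the limit of the promoter window. Summits of both replicates fall 949 and 960 bp upstream of ceh-99 and 986 and 999 bp upstream of mec-3, close to that limit.

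Apart from 1 at ceh-36, regions just past the upstream limit were of middling or low rank. Between 900 and 1000 bp upstream, the other members were ceh-74, ceh-48 and ceh-28, all in replicate 1, with ranks of 7946, 15397 and 9758. Past the limit, ceh-36, an Otx-related gene of chemosensory neurons, had a replicate 1 region 1267 bp upstream with a rank of 1302 (q = 0.0380). The other regions up to 1300 bp upstream, at ceh-32, ceh-43, ceh-89, ceh-54, ceh-38 and ceh-33, had ranks from 5790 to 19699.

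The 6 Hox genes had no thresholded peak, and the nearest lay 74104 bp from the start of php-3 and 75983 bp from nob-1. For the other 4 Hox genes that distance ran from 603253 bp at egl-5 to 881001 bp at lin-39. By list, 5 of 6 had a region in replicate 1, 4 in replicate 2, 2 in the pooled list and 1 an overlapping pair. The shares of all genes for these calls were 48.2%, 50.8%, 16.9% and 16.6%, and with so few Hox genes the counts are a description.

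The posterior gene nob-1 (WBGene00003779, III:12077793-12084316, minus strand), which patterns the tail region, was the Hox gene with overlapping regions. Its best region ranked 714 in replicate 1 (signal 6.46, q = 0.0217) and 2717 in replicate 2 (signal 6.22, q = 0.347). In the pooled list it ranked 1006 (signal 11.7, q = 0.324). The summits were 48 bp apart in an intron, 2305 and 2353 bp downstream of the outermost start. This is the region printed above, with 2 TGACA words and no TGACAG near its pooled summit. A further pooled region in an intron, 860 bp downstream of the start, ranked 1546 and overlapped regions at ranks 14932 and 11719. The neighbouring paralogue php-3 had no region in any list.

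At egl-5, an Abdominal-B type gene of the tail, the replicates listed different places. Replicate 1 ranked a region 660 (signal 6.55, q = 0.0205) in an intron 199 bp downstream of a start, and no TGACA or TGACAG word lay within 100 bp of it. The regions of replicate 2 ranked 15386 and 17593, lay elsewhere in the window, and had q-values of 0.911 and 0.950. No pooled region was listed at egl-5. The high value therefore came from replicate 1 alone.

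The mid-body gene lin-39, needed for vulval fate, had intronic regions in both replicates that did not overlap each other. The replicate 1 region ranked 2453 (q = 0.109), 2913 bp downstream of the nearest start, and the best of replicate 2 ranked 2150 (q = 0.258), at 2432 bp. A pooled region 3744 bp downstream ranked 4047 (q = 0.928) and lay 4 bp from a replicate 2 summit of rank 5953. At ceh-13, the labial-type gene, the best ranks were 17892 in replicate 1 and 1805 in replicate 2 (q = 0.897 and 0.223), again at different positions. The replicate 2 region lay in a coding exon 180 bp downstream of the start and had a TGACAG word within 100 bp. At mab-5, which guides migrating neuroblasts, replicate 1 listed regions of rank 6574 and 11977, and replicate 2 listed none.

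**Figure D3:**
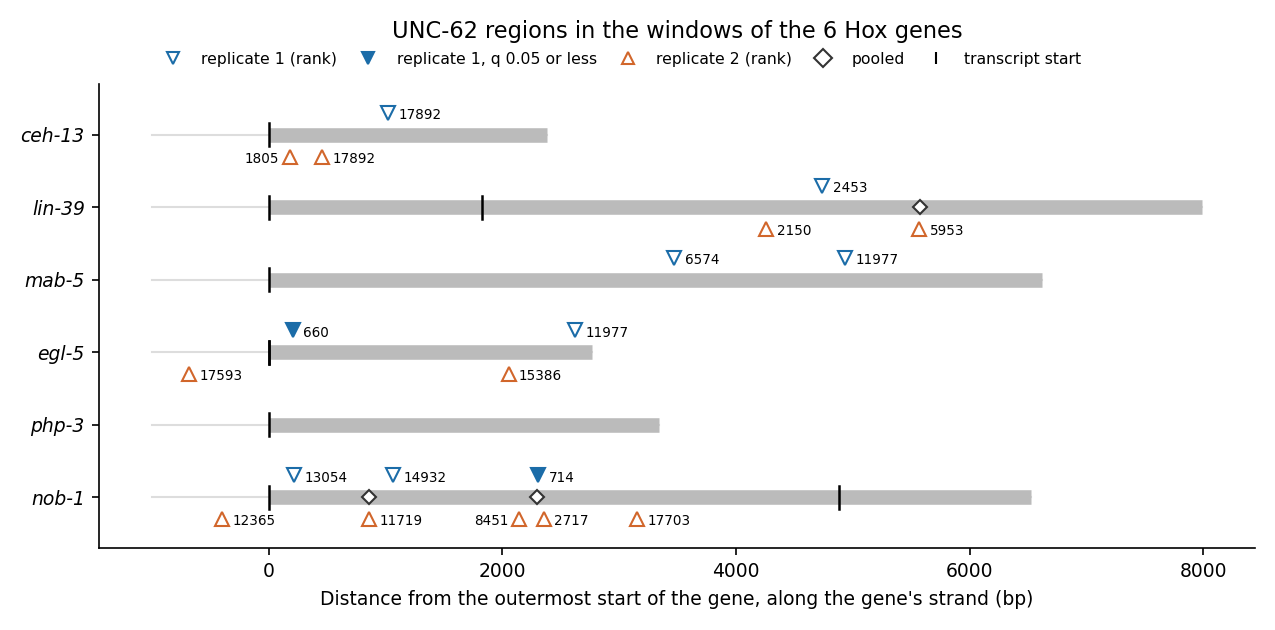
Summits in the windows of the 6 Hox genes, by distance in bp from the outermost start along the gene's strand (grey bars, gene bodies; black ticks, starts). Triangles carry the rank within the list of replicate 1 (above) or replicate 2 (below), and filled ones have a q-value of 0.05 or less; open diamonds are pooled summits. The filled symbols are those of egl-5 (rank 660) and nob-1 (rank 714), and the one at egl-5 has no replicate 2 region below it.

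The PBC genes ceh-20 and ceh-40, whose products are partners of UNC-62, had no region outside replicate 1. At ceh-20 replicate 1 had an intronic region of rank 16182 (q = 0.835), and at ceh-40 one of rank 9994 (q = 0.474). Replicate 2, the pooled list and the thresholded list had no region at either gene. Of all genes, 48.2% had a region in replicate 1, 50.8% in replicate 2, 16.9% in the pooled and 0.686% in the thresholded list. Most genes thus had no pooled or thresholded region, and with 2 PBC genes these entries are a description.

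Among the paired-like genes, 4 of 9 had a region in replicate 1, 6 in replicate 2 and 3 in the pooled list (against 48.2%, 50.8% and 16.9% of all genes). Overlapping regions lay at 2 of them, ceh-37 and unc-42, against 16.6% of all genes. The Otx-related gene ceh-37, required in a pair of olfactory neurons, was the one with a q-value under the threshold. Its region ranked 983 in replicate 1 (signal 5.93, q = 0.0341, 94 bp upstream of the start) and 2598 in replicate 2 (signal 6.29, q = 0.342, 239 bp upstream). The pooled region, 157 bp upstream, ranked 1547 (q = 0.525), and the summits of the replicates were 145 bp apart. That pooled summit falls inside the ncRNA gene K06G5.10. There was a TGACA word but no TGACAG near any of these 3 summits. At unc-42, a determinant of command interneurons, the replicates placed a summit within 8 bp of each other in an intron, with ranks of 5039 and 7163 (q = 0.234 and 0.648). A pooled region of rank 1303 within the gene ceh-8 lay nearest to the start of the collagen gene col-63. Replicate 1 had no summit in the window of ceh-8, though a replicate 1 region overlapped the replicate 2 region there.

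The LIM genes were listed in replicate 1 for 5 of 6 members and in replicate 2 for 4, against 48.2% and 50.8% of all genes. Besides mec-3, overlapping pairs lay at lin-11, which acts in vulval cells and interneurons, and at ttx-3, a determinant of the AIY interneurons. Of all genes, 16.6% had such a pair. At lin-11 the pair lay upstream of the start with ranks of 8963 and 6007 (q = 0.412 and 0.585), and the pooled region ranked 3145. The pair at ttx-3 was at the bottom of both lists, with ranks of 15569 and 18086. At ceh-14 no list had a region.

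The CUT class, with 6 of 7 genes in the annotation, had overlapping pairs at ceh-38 and ceh-39, against 16.6% of all genes. The ONECUT gene ceh-38 had the tightest of these, with summits 7 bp apart at 27 and 20 bp downstream of the start. The ranks were 2245 in replicate 1 (signal 4.75, q = 0.0991), 2745 in replicate 2 (signal 6.21, q = 0.345) and 1078 in the pooled list (signal 11.5, q = 0.359), and a TGACAG word lay within 100 bp of all 3 summits. This summit also falls in the window of malt-1. At ceh-39, which in worms also counts X chromosomes in sex determination, the pair close to the start had ranks of 9134 and 5650, and the pooled region ranked 3277.

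In the remaining classes the entries were weak or unmatched. All 3 genes of the sine oculis class, ceh-32, ceh-33 and ceh-34, had a region in both replicates (against 30.6% of all genes), but at different positions in each, and the best rank among them was 4302 (ceh-32, replicate 1). Of the 7 NK genes, only ceh-1 had overlapping pairs, around its start, against 16.6% of all genes. The closest was 30 bp apart with ranks of 5978 and 3228 (q = 0.284 and 0.391), and the pooled regions ranked 1646 and 3721. The POU gene ceh-18, which acts in gonadal sheath cells, had 4 regions in each replicate. Its overlapping pair, with ranks of 2610 and 8787, lay at the far end of the gene, with ttr-48 as the nearest start. For unc-86, a POU gene of sensory neurons, replicate 1 alone gave a region, at rank 17226, and ceh-6 had none. Of the 7 members grouped as other named orthologs, ceh-2, ceh-12, ceh-16 and vab-7 were listed in replicate 1 only. In that group ceh-43 was listed in replicate 2 only, and ceh-30 and ceh-31 in neither. Of all genes, 17.6% were listed in replicate 1 alone, 20.2% in replicate 2 alone and 31.6% in neither. Among the 29 members in no class, overlapping pairs lay at ceh-99, ceh-75 (ranks 17788 and 17864) and ceh-83 (ranks 3801 and 11582). Such pairs lay at 16.6% of all genes.

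Regions were absent from both replicate lists for 18 members, and these had none in the pooled list either. They were ceh-5, ceh-6, ceh-10, ceh-14, ceh-17, ceh-21, ceh-27, ceh-30, ceh-31, ceh-54, ceh-63, ceh-76, ceh-81, ceh-82, ceh-87, ceh-90, ceh-93 and php-3. Genes without a region in either replicate made up 31.6% of all protein-coding genes. Of the 60 members with a region, 26 had one in both replicates, 17 in replicate 1 alone and 17 in replicate 2 alone. Of all protein-coding genes, 30.6% were listed in both, 17.6% in replicate 1 alone and 20.2% in replicate 2 alone. Among genes with a region, the split of the members was thus close to that of all genes. The 18 of 78 members listed in neither were a smaller share than the 31.6% of all genes. Whether the longer windows of members account for this was not tested.

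Of the 26 members listed in both replicates, 13 had overlapping regions. The distances below start from each member's best region and include the 17 members per replicate that the other replicate did not list. From the best replicate 1 region of a member to the nearest summit of replicate 2 the median distance was 1780 bp over 43 members, against 1230 bp over all genes with a region. Within 100 bp there were 9 of the 43 (20.9%), against 12.7% of all. In the other direction the median was 1590 bp, with 7 of 43 within 100 bp (16.3%, against 11.7%). Among the 13 members with overlapping regions, the closest summits were from 0 to 389 bp apart, with a median of 48 bp. Members where both overlapping regions reached their list's median signal were ceh-1, ceh-18, ceh-37, ceh-38, ceh-99, lin-11, mec-3, nob-1 and unc-42, which is 9 of 78, and 6.99% of all genes met that condition.

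**Figure D4:**
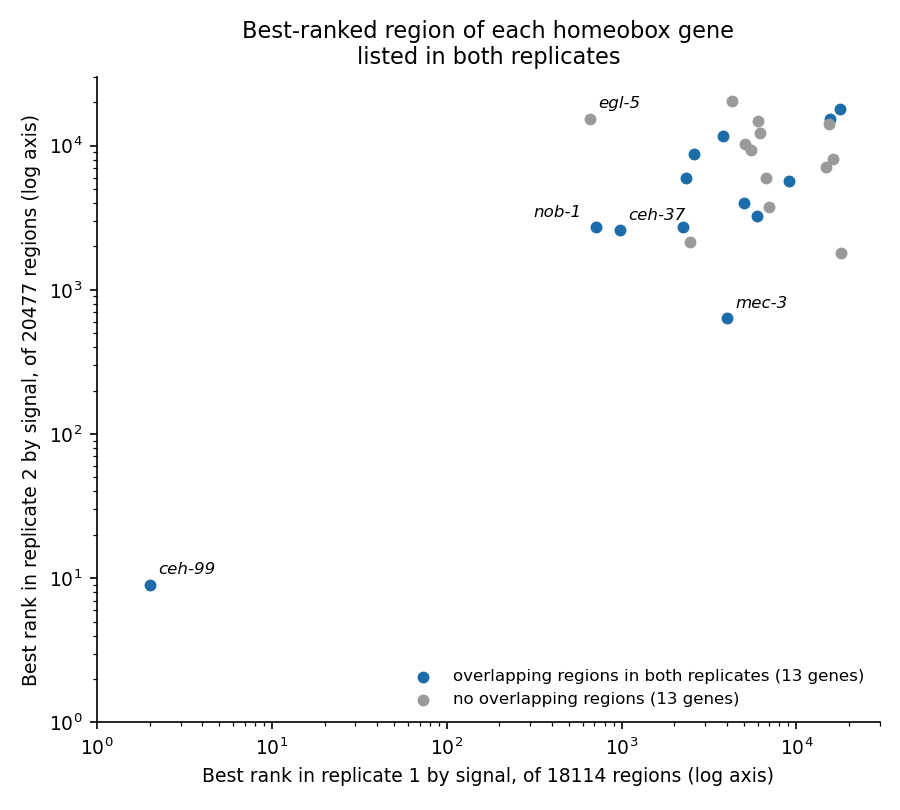
Best rank by signal of each member in replicate 1 (of 18114 regions) against replicate 2 (of 20477 regions), on log axes, for the 26 members listed in both; blue points are the 13 genes with overlapping regions. Only ceh-99 is near the top of both lists, at 2 and 9, and egl-5, nob-1, ceh-37 and mec-3 rank under 1000 in one list.

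Meis-class words were about as common in homeobox promoters as elsewhere. In a window of 1501 bp at the outermost start, TGACAG on either strand was present for 38 of 78 members (48.7%, interval 37.9 to 59.6), and for 41.2% of 19973 nuclear genes. The word was present at 9 of the 11 members with a pooled region and at 29 of the 67 without, while over all genes those shares were 42.4% and 41%. Word and region need not lie together here, since the pooled regions of nob-1, lin-39, unc-42 and ceh-8 lay outside the promoter window. The difference was not tested. The Hox-Pbx word TGATNNAT was present for 55 members (70.5%) and for 71.9% of all promoters. Near summits, TGACAG lay within 100 bp of 3 of 13 pooled member regions (23.1%, interval 8.18 to 50.3), those of ceh-99, mec-3 and ceh-38, against 9.61% of all nuclear pooled regions. The share was 7.58% in replicate 1 (5 of 66), against 7.86%, and 13.9% in replicate 2 (10 of 72, interval 7.72 to 23.7), against 7.25%. In replicate 2 the share of all regions lay below the members' interval. Within 50 bp the members' shares were 23.1% in the pooled list, 7.58% in replicate 1 and 6.94% in replicate 2. All nuclear regions had 5.32%, 4.04% and 3.65% there. These differences were not tested. TGATNNAT lay within 100 bp of 1 of the 13 pooled summits (7.69%), at ceh-37, against 16.2% of all nuclear pooled regions. A word in a window is a match of letters and does not show a site.

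The X chromosome held 20 of the 78 members (25.6%, against 13.7% of all genes). Members on X were listed in 10 cases in replicate 1 (where 53.8% of X genes were), 8 in replicate 2 (against 56.8% of X genes) and 3 in the pooled list (against 21.9%), and none had a thresholded peak. Overlapping regions of both replicates lay at 5 of the 20, where 20.6% of X genes had them.

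Thresholded peaks beyond the window but within 20000 bp of a start lay near 4 further members, ceh-5 (4878 bp), ceh-37 (6745 bp), ceh-54 (13574 bp) and lim-6 (19067 bp). With ceh-99 this is 5 of 78 members, where 6.56% of nuclear genes had a peak that close. The nearest starts to those 4 peaks were of other genes, eat-16, K06G5.1, T13C5.6 and pigx-1, and their signals were from 21.4 to 22.8, in the lower part of the list. The peak near lim-6 had a TGACAG word.

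Some homeobox genes outside the rule also had thresholded peaks, ranked below that of ceh-99. In a list of 23 such genes, 2 had one (8.70%, against 0.686% of all genes), namely irx-1 and ceh-60. The intronic peak of irx-1, the Iroquois gene of the TALE class, ranked 150 in the pooled list (signal 22.5), 91 in replicate 1 (q = 0.00220) and 298 in replicate 2 (q = 0.0218), with a TGACAG word within 100 bp. At ceh-60, a PBC gene, the peak lay in a coding exon 7181 bp downstream of the nearest start and ranked 187 in the pooled list, 318 in replicate 1 (q = 0.0142) and 205 in replicate 2 (q = 0.0171). A further pooled region 727 bp upstream of ceh-60 ranked 256. In replicate 1, dve-1 was the other gene of this list with a q-value of 0.05 or less (rank 1031, q = 0.0325). No difference between this list and the 78 members was tested.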

How the data were processed

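ChIP-seq peak lists of 2 biological replicates of UNC-62 in L4 worms were analysed. Per the file headers of the deposited read-me texts, the authors derived each replicate's list from its own alignments and a control, a pooled list from both, and a thresholded list by the irreproducible discovery rate (IDR). The deposited signal value per region is the authors' own, on an unstated scale; the deposited −log10 q-value was turned into a q-value. Which aligner, peak caller and IDR threshold the authors used is not stated in the labels or headers.

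Only the lists of build ce11 were used; 0 regions passed a chromosome end of WBcel235. Genes and starts came from Ensembl release 115. Most summits are region midpoints. Coordinates are 1-based. The gene ceh-44 is named cone-1 there and is not a member. Members, classes and lists were chosen with earlier results of these data known, so no test was made. Genes described in full were those with a thresholded peak, a q-value of 0.05 or less or one of the 10 best pooled ranks, and the Hox and PBC genes; other named genes were chosen after their values were seen. Intervals, where given, are 95% Wilson intervals. Assignment was tested on simulated data (Python 3.11.15, pandas 2.3.3, statsmodels 0.14.6).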

Additional observations from a re-analysis of the deposited data

How the results depend on the processing

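Of 45 alternative values over 13 results, 28 were within the range set for them and 17 were not. Using the promoter window alone gave 7 members in the pooled list, 25 in replicate 1 and 28 in replicate 2 (against 11.1%, 30.6% and 34.4% of all genes). The members' mean density was then 0.208 regions per kb, where the main window gave the same members 0.188. No density of all genes is given for the promoter window alone. Regions at or above the list's median signal lay at 7 members in the pooled list and 26 in replicate 2 (against 8.92% and 31.2% of all genes). With a window of 500 bp upstream to 100 bp downstream or the gene body, and also with each summit given to the nearest start only, 0 members had a thresholded peak and 0 a q-value of 0.05 or less in the pooled or replicate 2 list, because ceh-99 was lost. At a q-value of 0.01 or less, replicate 1 had 1 member, ceh-99, and the pooled and replicate 2 lists had 0 members and no gene at all. The lowest q-values in those 2 lists are 0.0381 and 0.0131, so this setting had to leave them empty. Without replicate 1, 43 members had a region (50.8% of all genes), and without replicate 2 also 43 (48.2%), where both together gave 60 (68.4%). For a q-value of 0.05 or less, 1 member, ceh-99, was left without replicate 1 (2.30% of all genes). Without replicate 2 there were 4 (5.98%), and with both 4 (7.21%). Leaving out each replicate in turn gave from 0.179 to 0.196 regions per kb. With a single replicate's list in place of the pooled list, 7.58% or 13.9% of member regions had TGACAG. The pooled list had 23.1%. Overlapping regions of both replicates lay at 9 to 13 members under every setting tried, and at 6.99% to 16.6% of all genes. No paired analysis was possible because the study has 1 group. Without read counts, weak occupancy cannot be told from background, and 2 replicates estimate spread poorly.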
